A study of Mus musculus with 24 samples.

Results

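CD31+ Rspo3+ cells of the mouse colon were compared with CD31+ Rspo3+ cells of the mouse small intestine, using 6 of the 24 sequenced libraries: 3 colonic and 3 small intestinal. The libraries were found by the tissue, the CD31 sign and the Rspo3 sign in the names of the count columns. Both groups were sorted stromal cells without the epithelial surface protein Epcam and without the leukocyte protein CD45, positive for the endothelial protein CD31 and for an Rspo3 GFP transgene, from C57Bl6 mice that were 8 to 12 weeks old. All 8 groups of the study came from such mice and differed in tissue, CD31 and the transgene. The labels give no other allele or treatment, do not describe the sequences that drive the transgene, and do not say whether libraries came from separate or pooled mice, so that p-values measure the spread between libraries only. The other 6 groups (CD31+ Rspo3-, CD31- Rspo3+ and CD31- Rspo3- cells of each tissue, 3 libraries each) are used here for levels and for tests of whether a tissue difference differed between cell fractions.

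CD31, encoded by Pecam1, marks all endothelium. Lymphatic endothelial cells line the vessels that drain fluid, immune cells and, in the small intestine, absorbed fat, which enters blind-ended vessels called lacteals inside the villi. They depend on the transcription factor Prox1 and carry the hyaluronan receptor Lyve1 and the VEGF-C receptor Flt4. R-spondin 3, the product of Rspo3, is a secreted protein that strengthens Wnt signaling in neighbouring epithelial stem cells. The colon has no villi, and the comparison asks how the lymphatic endothelium that carries Rspo3 differs between both parts of the gut.

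The colonic libraries held 15070923, 15669076 and 17632590 counts, and the small intestinal libraries held 21302297, 16228936 and 8462041 counts. Pearson correlations of log2(CPM + 1), with CPM each gene's count scaled to its library's total over tested genes times the TMM factor, were 0.9705 to 0.9804 within a tissue and 0.9473 to 0.9651 between tissues. The first principal component, with 46% of the variance, separated the tissues. On the second, with 19.1%, colonic library 1 (-30.9) and small intestinal library 2 (-35.7) lay opposite colonic library 2 (40.9). Colonic library 3 lay at -2.54, and small intestinal libraries 1 and 3 lay at 12.5 and 15.8. Colonic library 1 also had the highest sum of fibroblast markers, and small intestinal library 2 had the highest such sum of its tissue. Sums over 18 fibroblast markers were 7452, 3004 and 3766 CPM in the colonic libraries, against 2091, 3419 and 2415 CPM in the small intestinal libraries. In bulk libraries such as these, fewer cells of a type and less RNA per cell cannot be told apart. The part of these other cells in the results below was not tested, and results that lean on colonic library 1 are given with and without it.

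Both groups carried lymphatic endothelial genes at high level, and the genes that define the gates, Pecam1 and Rspo3, did not pass the test between tissues with all 24 libraries fitted. Pecam1 had 629, 600.2 and 691 CPM in the colonic libraries, against 435, 481 and 347 CPM in the small intestinal libraries (log2 fold change, colon minus small intestine, 0.60 ± 0.31 SE, edgeR adjusted p = 0.317, but 0.0495 with the 6 libraries alone, and up to 0.549 over all alternatives). Rspo3 had 357, 409 and 353 CPM in the colon, against 449.9, 303 and 401 CPM in the small intestine (log2 fold change -0.04 ± 0.22, edgeR adjusted p = 0.96). The libraries of both tissues overlapped for Rspo3, and every colonic library lay above the small intestinal ones for Pecam1. Prox1 averaged 378 ± 26.0 CPM in the colon and 570.0 ± 146 CPM in the small intestine (SD, n = 3 each), and Lyve1 averaged 5659 ± 842 CPM and 5228 ± 379 CPM in the same order. Neither Prox1 nor Lyve1 passed the test (edgeR adjusted p = 0.416 for Prox1 and 0.946 for Lyve1), and nor did Flt4 (edgeR adjusted p = 0.809) or podoplanin, Pdpn (edgeR adjusted p = 0.356). Of 15 genes of lymphatic endothelial identity, 2 rose in the colon, 1 fell and 12 did not pass (median log2 fold change 0.11), which is 20% called, against 6.35% of all tested genes. The 3 were Ccl21a and Nrp2, described below, and Thy1, a surface glycoprotein. Thy1 had 79.5, 98.9 and 126 CPM in the colon, against 58.8, 40.3 and 48.1 CPM in the small intestine (log2 fold change 1.05 ± 0.23, edgeR adjusted p = 0.00893). Thy1 was lost without small intestinal library 2 or colonic library 3 (edgeR adjusted p = 0.0524 and 0.0723, with 0.000425 to 0.0723 over all alternatives). In the CD31+ Rspo3- cells, Lyve1 averaged 260.3 CPM in the colon and 671 CPM in the small intestine, and in the other fractions it stayed below 60 CPM in the group means.

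Of the 19050 genes tested, 1209 (6.35%) were called by edgeR's quasi-likelihood test with Benjamini-Hochberg adjustment, 539 higher in the colon (2.83%) and 670 lower (3.52%). The call used an adjusted p under 0.05, and 417 of the higher and 462 of the lower genes differed at least 2-fold. Libraries of both tissues did not overlap for 519 of the 539 higher and 661 of the 670 lower genes, while 11.7% of all tested genes lay higher in every colonic library and 12.2% lay lower. Without small intestinal library 1, small intestinal library 3 or colonic library 1, 321, 337 and 346 genes were called higher. Without colonic library 3, colonic library 1 or small intestinal library 2, 374, 437 and 441 genes were called lower. The median log2 fold change over all tested genes was 0.00287. For the gene lists below, the 6.35% of all tested genes called in either direction is given as the background.

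**Figure D1:**
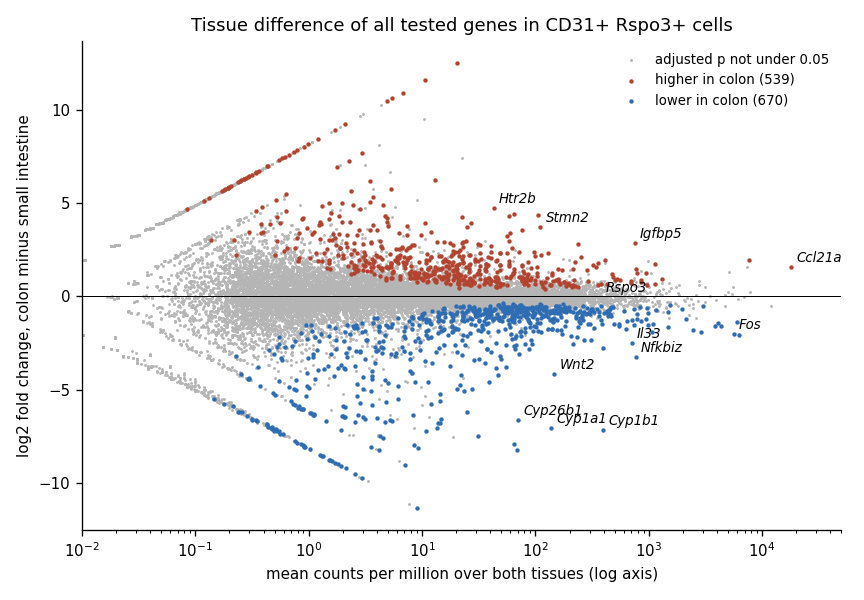
Each point is 1 of the 19050 tested genes, with its mean level over both tissues in CPM (log axis) against its log2 fold change, colon minus small intestine, and genes left of the axis are not drawn. The 539 genes called higher in the colon are red and the 670 called lower are blue. Cyp1b1, Cyp1a1, Cyp26b1 and Wnt2 lie far below 0 at high level, while Rspo3 lies at 0.

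The 15 steepest falls by the ranking of called genes with at least 10 CPM included 2 targets of the aryl hydrocarbon receptor, AHR, a ligand-activated transcription factor that senses dietary, microbial and environmental molecules. Cyp1b1 (chr17:79701537-79715061, GRCm38), which encodes a monooxygenase, had 10.3, 2.11 and 3.79 CPM in the colonic libraries, against 888, 792 and 669.8 CPM in the small intestinal libraries. Cyp1a1 (chr9:57687928-57703824), the classical target enzyme, had 3.73, 1.41 and 1.14 CPM in the colon, against 268, 211 and 345 CPM in the small intestine. Every colonic library lay far below every small intestinal one for both genes. The log2 fold changes were -7.18 ± 0.61 (SE) for Cyp1b1 and -7.03 ± 0.67 for Cyp1a1 (edgeR adjusted p = 1.57e-06 and 2.77e-06), and without colonic library 1 they were -8.03 and -7.74.

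The feedback inhibitors of the receptor fell with them. Ahrr, the AHR repressor, had 5.47, 4.16 and 7.26 CPM in the colon, against 81.8, 65.7 and 52.0 CPM in the small intestine (log2 fold change -3.56 ± 0.50, edgeR adjusted p = 0.000128). Tiparp, an ADP-ribosyltransferase that restrains AHR, had 107, 69.4 and 90.3 CPM in the colon, against 326, 427 and 577 CPM in the small intestine (log2 fold change -2.32 ± 0.25, edgeR adjusted p = 1.12e-05). Neither gene's groups overlapped. Ahr itself averaged 89.9 ± 12.1 CPM in the colon and 173 ± 16.3 CPM in the small intestine (SD, n = 3 each) and did not pass (edgeR adjusted p = 0.333). Its adjusted p was 0.00525 when edgeR was fitted on the 6 libraries alone. Nqo1, a quinone reductase that AHR and Nrf2 both control, had 194 ± 22.05 CPM in the colon and 250.2 ± 41.2 CPM in the small intestine (edgeR adjusted p = 0.484).

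In a list of 24 genes of drug and bile acid handling, 7 fell in the colon and 17 did not pass (29.2% called, background 6.35%). The median log2 fold change was -0.70. The 7 were Cyp1a1, Cyp1b1, Ahrr, Tiparp, Nfe2l2, Abcc9 and Abcc4. Nfe2l2 encodes Nrf2, the main regulator of antioxidant genes, and averaged 237 ± 19.97 CPM in the colon and 380.3 ± 49.3 CPM in the small intestine (log2 fold change -0.68 ± 0.14, edgeR adjusted p = 0.00554). Abcc4, an exporter of organic anions and prostaglandins, averaged 28.0 ± 1.38 CPM in the colon and 67.1 ± 4.50 CPM in the small intestine (log2 fold change -1.26 ± 0.25, edgeR adjusted p = 0.00307). Abcc9, a regulatory subunit of ATP-sensitive potassium channels that the list holds by family, averaged 9.28 ± 3.25 CPM and 29.7 ± 10.8 CPM in the same order (edgeR adjusted p = 0.00347). The count was 7 with each of the 6 libraries left out as well. Kcnj8, the pore of that channel, had 61.4, 86.3 and 81.1 CPM in the colon, against 318, 365 and 331 CPM in the small intestine (log2 fold change -2.15 ± 0.21, edgeR adjusted p = 4.53e-06). Sums over 16 smooth muscle and pericyte markers were 669, 551 and 544 CPM in the colon, against 899, 1072 and 997 CPM in the small intestine. Of these markers 1 rose, 1 fell and 14 did not pass (12.5% called, background 6.35%, median log2 fold change 0.38). The median thus lay above 0 although the sums were lower in the colon. The smooth muscle genes Acta2, Tagln and Myh11 overlapped between the tissues. Acta2 had 113, 93.7 and 59.3 CPM in the colon, against 55.1, 90.3 and 49.2 CPM in the small intestine. The part of smooth muscle cells and pericytes in the Kcnj8 and Abcc9 differences was not tested.

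The stretches of 250 bases before the RefSeq start sites of the 4 AHR pathway genes are shown because AHR binds DNA through the core GCGTG (GRCm38.p6, gene strand, 5′ to 3′). Capitals mark GCGTG or its reverse complement CACGC, in the windows chr9:57697363-57697612 (plus strand), chr17:79715062-79715311 (minus), chr13:74292332-74292581 (minus) and chr3:65528197-65528446 (plus).
Cyp1a1: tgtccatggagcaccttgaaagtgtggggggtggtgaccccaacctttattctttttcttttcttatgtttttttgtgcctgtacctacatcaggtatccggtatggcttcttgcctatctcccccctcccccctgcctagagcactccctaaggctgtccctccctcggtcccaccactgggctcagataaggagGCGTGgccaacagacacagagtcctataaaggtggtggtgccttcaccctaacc
Cyp1b1: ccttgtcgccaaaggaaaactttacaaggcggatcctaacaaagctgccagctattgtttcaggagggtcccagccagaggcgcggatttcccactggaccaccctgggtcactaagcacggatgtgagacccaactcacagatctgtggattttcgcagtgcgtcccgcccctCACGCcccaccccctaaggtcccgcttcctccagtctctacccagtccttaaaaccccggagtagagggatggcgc
Ahrr: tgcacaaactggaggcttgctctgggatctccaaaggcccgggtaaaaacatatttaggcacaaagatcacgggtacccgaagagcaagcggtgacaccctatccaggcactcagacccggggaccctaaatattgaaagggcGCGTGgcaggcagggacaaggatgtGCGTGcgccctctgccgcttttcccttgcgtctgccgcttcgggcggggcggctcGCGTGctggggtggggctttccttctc
Tiparp: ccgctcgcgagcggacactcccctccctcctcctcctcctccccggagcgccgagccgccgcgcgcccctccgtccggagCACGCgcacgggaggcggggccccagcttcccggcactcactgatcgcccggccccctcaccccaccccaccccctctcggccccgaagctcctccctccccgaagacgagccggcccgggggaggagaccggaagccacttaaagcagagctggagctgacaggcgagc
Each of the 4 windows held the core, and the Ahrr window held it 3 times. The core, searched on both strands, was found in 9250 of 32851 promoter windows of this length (28.2%), and the Nqo1 window held none. A match of these 5 letters describes the window and is no evidence of binding.

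The tissue difference of the AHR targets was larger in these cells than in the other endothelial cells. In CD31+ Rspo3- cells, Cyp1b1 averaged 37.4 CPM in the colon and 147 CPM in the small intestine, and Cyp1a1 averaged 37.7 CPM and 98.0 CPM. The interaction of tissue with fraction, in which a negative value means a deeper colonic deficit in CD31+ Rspo3+ cells, was -5.20 ± 0.70 for Cyp1b1 (edgeR adjusted p = 0.000412) and -5.66 ± 0.79 for Cyp1a1 (edgeR adjusted p = 0.000521) on the log2 scale. For Ahrr it was -3.42 ± 0.65 (edgeR adjusted p = 0.00678) and for Tiparp -2.74 ± 0.34 (edgeR adjusted p = 0.000251). In CD31- Rspo3+ cells, Cyp1b1 was also lower in the colon (5.18 CPM, against 372 CPM in the small intestine), and that interaction did not pass (-0.99 ± 0.68, edgeR adjusted p = 0.517), whereas the interaction of Tiparp did (-2.83 ± 0.35, edgeR adjusted p = 0.000102).

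Genes of retinoic acid, the vitamin A derivative that patterns the gut and its lymphatic vessels, formed a second group. Of 17 tested members, 6 fell in the colon, 2 rose and 9 did not pass (47.1% called, background 6.35%, median log2 fold change -0.19). Cyp26b1 (chr6:84571414-84593908), the enzyme that degrades retinoic acid, had 3.07, 0.128 and 0.975 CPM in the colon, against 136, 119.7 and 163 CPM in the small intestine (log2 fold change -6.64 ± 0.99, edgeR adjusted p = 0.000235). Without colonic library 1 the log2 fold change was -7.90. Dhrs3, which turns retinaldehyde back to retinol, had 115, 116 and 120.4 CPM in the colon, against 310.0, 328 and 439 CPM in the small intestine (log2 fold change -1.61 ± 0.27, edgeR adjusted p = 0.000883). Both groups stood apart for each of these genes, and both genes are known to be induced by retinoic acid itself.

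Rarb, a retinoic acid receptor and a classical target, had 81.4, 69.3 and 58.6 CPM in the colon, against 251, 210.5 and 254 CPM in the small intestine (log2 fold change -1.77 ± 0.41, edgeR adjusted p = 0.0113). Its call was lost without colonic library 3 (edgeR adjusted p = 0.0652, with 1.01e-05 to 0.0652 over all alternatives). The enzymes that make retinoic acid were low in these cells. Aldh1a3 averaged 7.401 ± 2.41 CPM in the colon and 37.6 ± 16.4 CPM in the small intestine (log2 fold change -2.34 ± 0.50, edgeR adjusted p = 0.00667). Aldh1a2 averaged 2.50 ± 1.28 CPM in the colon and 11.6 ± 5.09 CPM in the small intestine (edgeR adjusted p = 0.00977), and its call was lost without colonic library 2 or 3 (edgeR adjusted p = 0.0507 and 0.0636, with 0.000115 to 0.081 over all alternatives). Small intestinal CD31- Rspo3- cells held 767 CPM of Aldh1a3 and 231 CPM of Aldh1a2.

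Of the members called higher, Rbp4, a plasma carrier of retinol, averaged 6.87 ± 1.29 CPM in the colon and 0.513 ± 0.178 CPM in the small intestine (log2 fold change 3.81 ± 0.55, edgeR adjusted p = 0.000189, lost with limma voom at 0.0807, with 2.97e-10 to 0.0807 over all alternatives), while colonic CD31- Rspo3- cells held 184 CPM. Rbp7, a retinol-binding protein of capillary endothelium, averaged 88.9 ± 11.2 CPM in the colon and 28.5 ± 6.53 CPM in the small intestine (edgeR adjusted p = 0.0269). The Rbp7 call was lost with any 1 of the 6 libraries left out, whichever it was (edgeR adjusted p = 0.0839, 0.127 and 0.0545 without small intestinal libraries 1, 2 and 3, and 0.054, 0.08 and 0.068 without colonic libraries 1, 2 and 3). Over all its alternatives the edgeR and other adjusted p ran from 0.000234 to 0.127.

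The window before the RefSeq start of Rarb is shown because it holds the direct repeat known from this promoter as a retinoic acid response element, GGTTCA and AGTTCA with 5 bases between them, in capitals (GRCm38.p6, chr14:16575477-16575726, minus strand, 5′ to 3′). On both strands, 2 of 32851 windows of this length (0.00609%) held that repeat.
Rarb: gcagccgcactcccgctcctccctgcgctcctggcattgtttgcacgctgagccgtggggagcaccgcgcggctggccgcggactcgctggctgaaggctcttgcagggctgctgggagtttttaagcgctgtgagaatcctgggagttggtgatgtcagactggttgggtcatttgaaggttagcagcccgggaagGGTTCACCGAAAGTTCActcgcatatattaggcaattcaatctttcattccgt

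**Figure D2:**
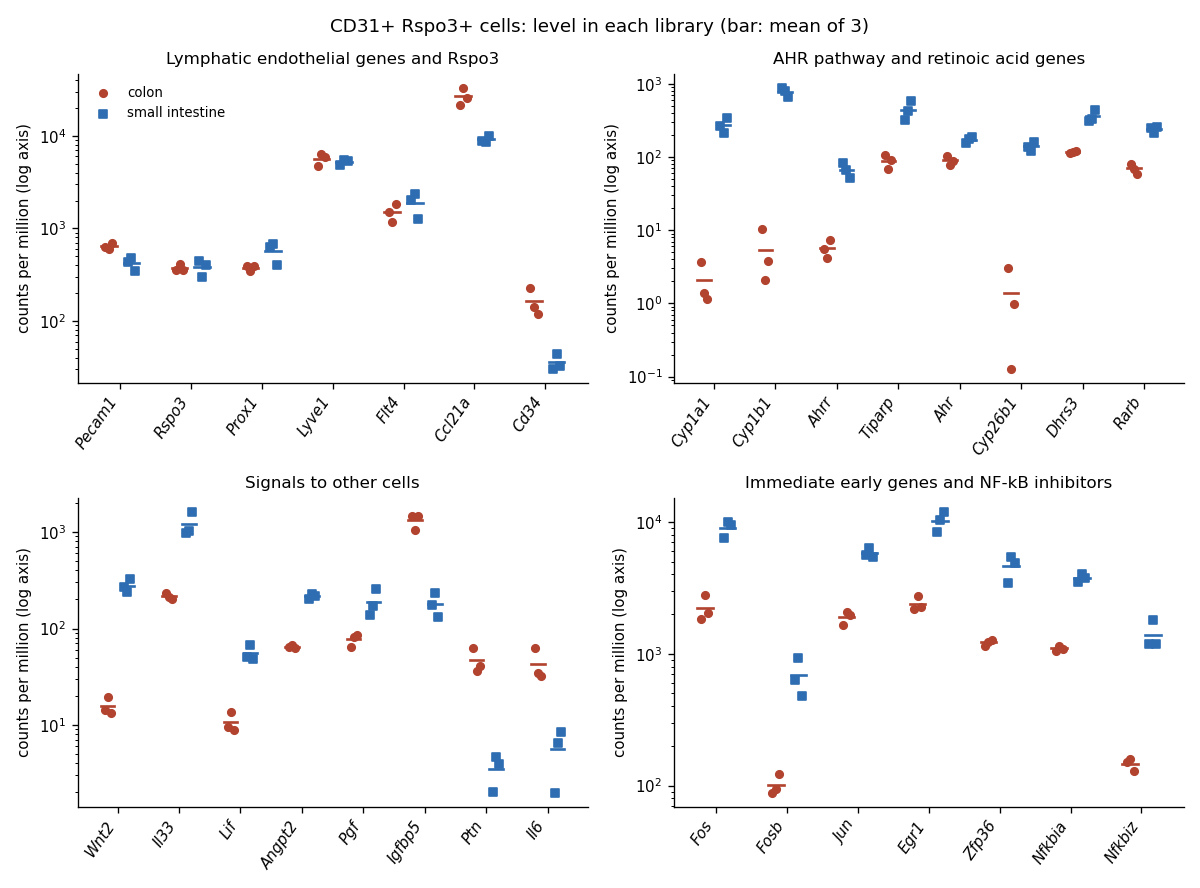
Levels of 30 genes in each CD31+ Rspo3+ library, in CPM on log axes, with colonic libraries as red circles left of small intestinal libraries as blue squares and bars for the means of 3 libraries. Ccl21a and Cd34 lie higher in every colonic library, while the AHR pathway, Cyp26b1, Wnt2, Il33 and the immediate early genes lie lower in every colonic library.

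Immediate early genes are switched on in cells within minutes of a stimulus or of handling. Of 23 tested immediate early and heat shock genes, 11 fell and 12 did not pass (47.8% called, background 6.35%, median log2 fold change -0.86). Fos had 1827, 2809 and 2052 CPM in the colonic libraries, against 7499, 9957 and 9507 CPM in the small intestinal libraries (log2 fold change -2.01 ± 0.21, edgeR adjusted p = 8.12e-06). Fosb had 87.9, 94.7 and 122 CPM in the colon, against 637, 936 and 481 CPM in the small intestine (log2 fold change -2.75 ± 0.26, edgeR adjusted p = 2.68e-06). Both encode subunits of the AP-1 factor, and their groups did not overlap. Egr1 averaged 2389 ± 305 CPM in the colon and 10203 ± 1780.0 CPM in the small intestine (log2 fold change -2.09 ± 0.22, edgeR adjusted p = 1.06e-05), and Jun averaged 1902 ± 212 CPM and 5809 ± 523 CPM (log2 fold change -1.61 ± 0.19, edgeR adjusted p = 1.89e-05). With 1 library left out, 10 or 11 of the 23 were called.

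In CD31+ Rspo3- cells the colonic means of Fos and Egr1 lay above the small intestinal ones. Fos averaged 8623 CPM in colonic and 6347 CPM in small intestinal CD31+ Rspo3- cells, and its interaction of tissue with fraction was -2.45 ± 0.29 (edgeR adjusted p = 0.000118). Egr1 averaged 7858 CPM in colonic and 7542 CPM in small intestinal CD31+ Rspo3- cells (interaction -2.15 ± 0.31, edgeR adjusted p = 0.000592). In CD31- Rspo3+ cells Fos averaged 7795 CPM in the colon and 11849 CPM in the small intestine (interaction -1.41 ± 0.29, edgeR adjusted p = 0.00883). The time from tissue to lysis of each sort is not given, and its part in these levels was not tested.

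NF-kB is a transcription factor of inflammatory signals. Of 23 tested genes of NF-kB and innate sensing, 4 fell, 1 rose and 18 did not pass (21.7% called, background 6.35%). The median log2 fold change was -0.04. Nfkbia, the cytoplasmic inhibitor of NF-kB, had 1057, 1146 and 1095 CPM in the colon, against 3479, 4046 and 3787 CPM in the small intestine (log2 fold change -1.78 ± 0.19, edgeR adjusted p = 1.12e-05). Nfkbiz, a nuclear regulator, had 150.4, 158 and 128 CPM in the colon, against 1187, 1819 and 1175 CPM in the small intestine (log2 fold change -3.26 ± 0.29, edgeR adjusted p = 1.87e-06). The other two that fell were Tnfaip3, a deubiquitinase, at 137 ± 31.5 CPM in the colon and 360.5 ± 157 CPM in the small intestine (edgeR adjusted p = 0.0107), and the RNA sensor Tlr3 at 53.9 ± 2.87 CPM and 83.9 ± 8.08 CPM (edgeR adjusted p = 0.0305). Tnfaip3 was lost without small intestinal library 2 or colonic libraries 2 or 3 (edgeR adjusted p = 0.0806, 0.0582 and 0.0512, with 0.00059 to 0.0806 over all alternatives). Tlr3 was lost without small intestinal libraries 2 or 3 or colonic libraries 1, 2 or 3 (edgeR adjusted p = 0.1, 0.0737, 0.0826, 0.07 and 0.123, with 0.00371 to 0.153 over all alternatives). The member that rose was Saa1, an acute phase protein of colonic epithelium, with 35.8, 8.12 and 19.99 CPM in the colon, at least 334-fold higher than the floor of 3 counts over the small intestinal libraries, where it was at 0 (edgeR adjusted p = 0.00269, lost with limma voom at 0.157, with 4.56e-09 to 0.157 over all alternatives). Colonic CD31- Rspo3- cells held 279 CPM of Saa1.

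Among 41 tested cytokines and their receptors, 7 fell in the colon, 3 rose and 31 did not pass (24.4% called, background 6.35%). The median log2 fold change was 0.11. The alarmin Il33 (chr19:29925114-29960718), stored in the nuclei of endothelial and fibroblastic cells, had 235, 213 and 204 CPM in the colonic libraries, against 975, 1020.0 and 1622 CPM in the small intestinal libraries (log2 fold change -2.47 ± 0.30, edgeR adjusted p = 2.98e-05). Lif, a cytokine of the IL-6 family, had 9.62, 13.6 and 8.94 CPM in the colon, against 51.2, 67.2 and 48.0 CPM in the small intestine (log2 fold change -2.37 ± 0.44, edgeR adjusted p = 0.0019). No colonic library reached a small intestinal one for either cytokine. Receptors fell too: Il1r1, the receptor of IL-1, averaged 31.0 ± 8.24 CPM in the colon and 116 ± 12.2 CPM in the small intestine (log2 fold change -1.91 ± 0.25, edgeR adjusted p = 8.32e-05), and Tnfrsf1b, a TNF receptor, averaged 16.7 ± 1.86 CPM and 51.1 ± 3.87 CPM (log2 fold change -1.61 ± 0.19, edgeR adjusted p = 2.63e-05). Il15ra (log2 fold change -1.03 ± 0.17, edgeR adjusted p = 0.000706) and Il4ra (-0.87 ± 0.16, edgeR adjusted p = 0.00237) also fell, as did Ifngr1 (-0.71 ± 0.19, edgeR adjusted p = 0.0302). The Ifngr1 call was lost without small intestinal libraries 2 or 3 or colonic libraries 1 or 3 (edgeR adjusted p = 0.0996, 0.145, 0.137 and 0.0989, with 0.00935 to 0.145 over all alternatives).

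Il6 moved the other way, with 63.0, 34.2 and 32.1 CPM in the colon, against 1.97, 6.56 and 8.42 CPM in the small intestine (log2 fold change 2.97 ± 0.40, edgeR adjusted p = 9.72e-05), while colonic CD31- Rspo3+ cells held 429 CPM. Its co-receptor Il6st averaged 647 ± 111 CPM in the colon and 357 ± 98.5 CPM in the small intestine (edgeR adjusted p = 0.0476), and the IL-13 receptor subunit Il13ra1 averaged 47.3 ± 1.10 CPM and 24.9 ± 8.43 CPM (edgeR adjusted p = 0.0126). Il6st was lost without small intestinal libraries 1 or 3 or colonic libraries 1 or 3 (edgeR adjusted p = 0.15, 0.204, 0.119 and 0.161, with 0.00957 to 0.341 over all alternatives), and Il13ra1 without small intestinal library 1 (edgeR adjusted p = 0.0689, with 0.00194 to 0.0689 over all alternatives).

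Chemokines changed in both directions: of 35 tested, 3 rose, 2 fell and 30 did not pass (14.3% called, background 6.35%). The median log2 fold change was 0.13. Without colonic library 2, 5 were called higher. Ccl21a (chr4:42772860-42773993), which guides dendritic and T cells into lymphatic vessels, had 21737, 33239 and 25861 CPM in the colonic libraries, against 8915, 8534 and 10096 CPM in the small intestinal libraries (log2 fold change 1.55 ± 0.36, edgeR adjusted p = 0.011). It was among the most abundant transcripts of both groups, at 53081 ± 6689 TPM, a unit scaled for transcript length and library total, in the colon and 18844 ± 1085 TPM in the small intestine. Near-identical copies of Ccl21a lie in the mouse genome, so reads may be shared between them, and its call was narrowly lost without small intestinal library 2 (edgeR adjusted p = 0.0509, with 0.000166 to 0.0509 over all alternatives). The monocyte attractant Ccl8 had 8.18, 4.16 and 15.9 CPM in the colon, against 0.688, 0.675 and 0 CPM in the small intestine (log2 fold change 4.18 ± 0.90, edgeR adjusted p = 0.00651, lost with limma voom at 0.118, with 3.58e-06 to 0.118 over all alternatives), and without colonic library 3 the log2 fold change was 3.58. Cxcl9, an interferon-induced chemokine, averaged 24.2 ± 5.60 CPM in the colon and 6.68 ± 2.90 CPM in the small intestine (edgeR adjusted p = 0.0141). Cxcl9 was lost without small intestinal libraries 1 or 3 or colonic library 1 (edgeR adjusted p = 0.073, 0.0769 and 0.0502, with 0.000726 to 0.0769 over all alternatives). The neutrophil attractant Cxcl2 had 48.5, 21.9 and 21.2 CPM in the colon, against 125, 219 and 119 CPM in the small intestine (log2 fold change -2.34 ± 0.41, edgeR adjusted p = 0.00122). Ccl25, the small intestinal homing chemokine, averaged 2.71 ± 0.686 CPM in the colon and 14.5 ± 4.34 CPM in the small intestine (log2 fold change -2.41 ± 0.37, edgeR adjusted p = 0.000313), beside 465 CPM in small intestinal CD31- Rspo3- cells.

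Interferon-induced genes were also split, with 3 of 35 tested lower, 3 higher and 29 that did not pass (17.1% called, background 6.35%). The median log2 fold change was 0.17. Oasl2 had 29.2, 32.5 and 30.6 CPM in the colonic libraries, against 60.9, 59.2 and 76.5 CPM in the small intestinal libraries (log2 fold change -1.09 ± 0.17, edgeR adjusted p = 0.000413). Ifit3 had 59.2, 46.4 and 38.7 CPM in the colon, against 114, 119 and 161 CPM in the small intestine (edgeR adjusted p = 0.011), and Ifit2 averaged 80.1 ± 16.9 CPM in the colon and 208 ± 15.5 CPM in the small intestine (edgeR adjusted p = 0.0102). Both Ifit genes encode antiviral proteins that bind foreign RNA. Ifit3 was lost without small intestinal library 3 or colonic library 3 (edgeR adjusted p = 0.0538 and 0.0663, with 0.000587 to 0.0663 over all alternatives), and Ifit2 without colonic library 2 (edgeR adjusted p = 0.0591, with 0.000637 to 0.0591 over all alternatives). In CD31+ Rspo3- cells the mean of Ifit3 was higher in the colon, at 161 CPM, than in the small intestine, at 77.0 CPM, and its interaction of tissue with fraction was -2.51 ± 0.47 (edgeR adjusted p = 0.00571). Of the higher members, Cxcl9 is described above, and Gbp3 (log2 fold change 0.65) and the peptide transporter Tap1 (0.57) differed by less than 2-fold, with edgeR adjusted p = 0.0326 and 0.0368. Gbp3 was lost with any 1 library left out (edgeR adjusted p = 0.052, 0.0817 and 0.133 without small intestinal libraries 1, 2 and 3, and 0.0775, 0.1 and 0.0555 without colonic libraries 1, 2 and 3). Tap1 was lost without small intestinal libraries 2 or 3 or colonic libraries 1 or 2 (edgeR adjusted p = 0.0864, 0.161, 0.0829 and 0.14). Over all alternatives the adjusted p ran from 0.00906 to 0.139 for Gbp3 and from 0.0054 to 0.161 for Tap1.

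While Rspo3 did not pass the test between the tissues, a Wnt ligand of these cells did. Wnt2 (chr6:17988940-18030585), a canonical Wnt ligand, had 14.4, 19.4 and 13.2 CPM in the colonic libraries, against 269.7, 238 and 325 CPM in the small intestinal libraries (log2 fold change -4.15 ± 0.51, edgeR adjusted p = 3.74e-05). The groups lay far apart. Of 11 tested Wnt ligands, Wnt2 was the one called, and 10 did not pass (9.09% called, background 6.35%, median log2 fold change -0.48). On the length-scaled scale, colonic cells held 10.6 ± 1.49 TPM of Wnt2 and 182 ± 8.71 TPM of Rspo3, and small intestinal cells held 195 ± 25.5 TPM of Wnt2 and 194 ± 37.1 TPM of Rspo3. Wnt2 was lower in the colon also in CD31+ Rspo3- cells (2.44 CPM, against 32.2 CPM in the small intestine, interaction -0.44 ± 0.67, edgeR adjusted p = 0.857). In CD31- Rspo3+ cells it averaged 8.86 CPM in the colon and 2.95 CPM in the small intestine, and that interaction passed (-5.75 ± 0.70, edgeR adjusted p = 0.000102).

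Of 12 tested Wnt target genes 2 fell, both feedback inhibitors of the pathway, and 10 did not pass (16.7% called, background 6.35%). The median log2 fold change was -1.04. Nkd1 had 23.1, 14.3 and 15.2 CPM in the colon, against 53.5, 48.6 and 49.8 CPM in the small intestine (log2 fold change -1.53 ± 0.35, edgeR adjusted p = 0.0096). Nkd1 was lost without colonic libraries 2 or 3 (edgeR adjusted p = 0.0532 and 0.0566, with 0.000409 to 0.0566 over all alternatives). Apcdd1 had 1.86, 1.47 and 0.758 CPM in the colon, against 4.54, 5.95 and 4.27 CPM in the small intestine (log2 fold change -1.86 ± 0.38, edgeR adjusted p = 0.0045, lost with limma voom at 0.126, with 4.63e-05 to 0.126 over all alternatives). Axin2, a widely used target, stayed near 1 CPM in both groups and did not pass (edgeR adjusted p = 0.741). Of 8 tested R-spondins and receptors, 1 rose, 1 fell and 6 did not pass (25% called, background 6.35%). Sdc4, a syndecan that binds R-spondin 3 in Xenopus, rose to 28.2 ± 10.03 CPM in the colon, against 8.49 ± 3.64 CPM in the small intestine (log2 fold change 1.71 ± 0.36, edgeR adjusted p = 0.00551). Rspo2 was called lower on few counts, at 0.0601, 0 and 0 CPM in the colon and 2.62, 2.15 and 0 CPM in the small intestine (edgeR adjusted p = 0.0269). The Rspo2 call was lost without small intestinal libraries 1 or 2 or colonic libraries 1, 2 or 3 (edgeR adjusted p = 0.0839, 0.0616, 0.0767, 0.0955 and 0.114, with 0.00706 to 0.155 over all alternatives).

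BMP proteins oppose Wnt signaling in the crypt. They and their antagonists had 5 of 29 tested members called higher and 24 that did not pass (17.2% called, background 6.35%). The median log2 fold change was 0.67. The most stable was Fstl1, a secreted protein that binds BMP ligands, with 334, 304 and 302 CPM in the colonic libraries, against 109.7, 121 and 109.8 CPM in the small intestinal libraries (log2 fold change 1.46 ± 0.19, edgeR adjusted p = 8.04e-05). The ligand Bmp4 averaged 30.2 ± 4.28 CPM in the colon and 9.58 ± 4.72 CPM in the small intestine (edgeR adjusted p = 0.0128), and Bmp5 averaged 18.2 ± 5.44 CPM and 4.70 ± 2.36 CPM (edgeR adjusted p = 0.0217). Both ligands were more abundant in colonic CD31- Rspo3- cells, at 521 CPM for Bmp4 and 359 CPM for Bmp5. Bmp4 was lost without small intestinal libraries 1 or 3 (edgeR adjusted p = 0.0761 and 0.0568, with 0.0005 to 0.0761 over all alternatives), and Bmp5 without small intestinal libraries 1 or 3 or colonic libraries 2 or 3 (edgeR adjusted p = 0.104, 0.0982, 0.0592 and 0.0784, with 0.000935 to 0.173 over all alternatives). Gdf10 (edgeR adjusted p = 0.0167) had 45.5 CPM in colonic library 1 and 13.0 and 12.8 CPM in the others. Gdf10 was lost without that library or small intestinal libraries 1 or 2 (log2 fold change 1.29 in place of 2.16 without colonic library 1, edgeR adjusted p = 0.161, 0.0915 and 0.0865, with 0.000614 to 0.161 over all alternatives). Chrdl2 (edgeR adjusted p = 0.0371) averaged 0.864 ± 0.635 CPM in the colon and was at 0 in the small intestine, and its call was lost without small intestinal libraries 1, 2 or 3 or colonic libraries 1 or 2 (edgeR adjusted p = 0.125, 0.105, 0.0855, 0.111 and 0.0592, with 0.0023 to 0.256 over all alternatives). Grem1, the BMP antagonist that marks Rspo3+ fibroblasts, overlapped at 36.7, 10.2 and 9.42 CPM in the colon and 8.81, 13.4 and 5.69 CPM in the small intestine (edgeR adjusted p = 0.452). Id1, a classical BMP target, rose to 198 ± 27.2 CPM in the colon, against 83.4 ± 33.5 CPM in the small intestine (log2 fold change 1.25 ± 0.26, edgeR adjusted p = 0.00587). Id1 was named from a list of 30 endothelial and lymphatic transcription factors, not from the BMP list. Of those 30, 1 rose, 1 fell and 28 did not pass (6.67% called, background 6.35%).

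Vascular growth signals were split. Of 21 tested genes of the VEGF and angiopoietin system, 3 fell, 1 rose and 17 did not pass (19% called, background 6.35%). The median log2 fold change was 0.24. Angpt2, a ligand of the Tek receptor that lymphatic vessels need for their maturation, had 64.0, 66.9 and 63.3 CPM in the colon, against 203, 228 and 217 CPM in the small intestine (log2 fold change -1.74 ± 0.29, edgeR adjusted p = 0.000715). Pgf, placental growth factor, had 63.9, 82.3 and 86.6 CPM in the colon, against 139, 169.9 and 258 CPM in the small intestine (log2 fold change -1.28 ± 0.26, edgeR adjusted p = 0.00387). Neither ligand's groups overlapped. Nrp2, a co-receptor of VEGF-C and a lymphatic marker, averaged 529.7 ± 93.7 CPM in the colon and 1029 ± 204 CPM in the small intestine (edgeR adjusted p = 0.034). Nrp2 was lost without small intestinal libraries 1 or 2 or colonic libraries 2 or 3 (edgeR adjusted p = 0.131, 0.0823, 0.142 and 0.105, with 0.00616 to 0.142 over all alternatives).

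The member that rose was Flt1, the VEGF receptor of blood vessels, with 51.4, 18.2 and 18.5 CPM in the colon, against 8.81, 9.32 and 6.28 CPM in the small intestine (edgeR adjusted p = 0.0387). Its highest value was in colonic library 1, without which the log2 fold change was 1.17 in place of 1.84 and the edgeR adjusted p was 0.264, and it was also lost without small intestinal libraries 1, 2 or 3 (edgeR adjusted p = 0.104, 0.0948 and 0.143, with 0.00501 to 0.264 over all alternatives). It was 1 of 5 blood endothelial genes called higher among 21 tested, of which 16 did not pass (23.8% called, background 6.35%). The median log2 fold change of the list was 1.37. The most stable were Cd34, a sialomucin of capillary and stromal cells, with 230.2, 142 and 118 CPM in the colon, against 30.5, 44.6 and 32.5 CPM in the small intestine (log2 fold change 2.19 ± 0.24, edgeR adjusted p = 1.27e-05), and Ly6c1, a surface protein of capillary endothelium, with 116, 69.8 and 58.0 CPM, against 13.95, 23.7 and 11.5 CPM in the small intestine (log2 fold change 2.30 ± 0.32, edgeR adjusted p = 0.000113). Plvap, the diaphragm protein of fenestrated capillaries, had 518, 267 and 267 CPM in the colon, against 75.9, 108 and 114 CPM in the small intestine (edgeR adjusted p = 0.00957). Plvap was lost without small intestinal library 1 or colonic library 1 (edgeR adjusted p = 0.0562 and 0.0687, with 0.000234 to 0.0687 over all alternatives). Esam, an endothelial adhesion molecule, averaged 53.1 ± 12.3 CPM in the colon and 20.6 ± 3.68 CPM in the small intestine (edgeR adjusted p = 0.0167). Esam was lost without small intestinal libraries 1 or 2 or colonic library 1 (edgeR adjusted p = 0.0842, 0.0705 and 0.0821, with 0.00187 to 0.0842 over all alternatives). Without colonic library 1, and likewise without small intestinal library 1, 2 genes of the list were called. Colonic CD31+ Rspo3- cells held 11856 CPM of Plvap and 1418 CPM of Flt1. The blood endothelial list summed to 2815, 2207 and 2364 CPM in the colonic libraries, against 2540, 2619 and 2094 CPM in the small intestinal libraries. Its largest member was Kdr, which is also in the list of genes of all endothelium. Kdr averaged 841 CPM in the colon and 1411 CPM in the small intestine (edgeR adjusted p = 0.628). Of the 21 genes, 11 lay higher in every colonic library and 2 lay lower, against 11.7% and 12.2% of all tested genes. The part of cells from blood vessels in these 5 calls was not tested.

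Notch signaling, which restrains vessel sprouting, had 2 of 16 tested members called higher and 14 that did not pass (12.5% called, background 6.35%). The median log2 fold change was 0.58. Nrarp, a feedback inhibitor and direct target of Notch, had 81.3, 90.5 and 134 CPM in the colonic libraries, against 12.9, 11.3 and 8.18 CPM in the small intestinal libraries (log2 fold change 3.23 ± 0.54, edgeR adjusted p = 0.000861). The target Hes5 averaged 2.97 ± 0.663 CPM in the colon and 0.28 ± 0.191 CPM in the small intestine (edgeR adjusted p = 0.0365). The Hes5 call was lost with any 1 of the 6 libraries left out (edgeR adjusted p = 0.135, 0.0616 and 0.136 without small intestinal libraries 1, 2 and 3, and 0.09, 0.0781 and 0.0628 without colonic libraries 1, 2 and 3, with 0.000734 to 0.136 over all alternatives), and without small intestinal library 2 its log2 fold change was 3.97, against 3.33 ± 0.93 with all. The ligand Dll4 averaged 211 ± 27.7 CPM in the colon and 230.5 ± 30.8 CPM in the small intestine (edgeR adjusted p = 0.94).

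Of 26 tested genes of endothelial junctions, 4 rose in the colon and 22 did not pass (15.4% called, background 6.35%, median log2 fold change 0.06). Cdh13, a cadherin without a transmembrane domain, had 77.3, 39.8 and 35.7 CPM in the colon, against 2.66, 5.89 and 1.19 CPM in the small intestine (log2 fold change 3.92 ± 0.44, edgeR adjusted p = 1.58e-05, and 4.64 without small intestinal library 2). Every colonic library lay above every small intestinal one for Cdh13. Besides Esam (log2 fold change 1.37 ± 0.34, lost as given with the blood endothelial genes at edgeR adjusted p = 0.0842, 0.0705 and 0.0821), Jam2, a junctional adhesion molecule, was called at 17.96 ± 11.9 CPM in the colon and 7.10 ± 3.58 CPM in the small intestine (edgeR adjusted p = 0.0335), with overlapping libraries. Jam2 was lost without small intestinal libraries 1 or 3 or colonic library 1 (edgeR adjusted p = 0.152, 0.0899 and 0.293, with 0.00504 to 0.468 over all alternatives), and its log2 fold change of 1.35 was 0.69 without colonic library 1.

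In the basement membrane and integrin list, 5 of 34 rose, 1 fell and 28 did not pass (17.6% called, background 6.35%, median log2 fold change 0.63). Col18a1, the collagen that yields endostatin, had 1060.1, 941 and 1358 CPM in the colon, against 445, 472 and 308 CPM in the small intestine (log2 fold change 1.46 ± 0.31, edgeR adjusted p = 0.00616). Lama5, a laminin chain, averaged 7.62 ± 2.36 CPM in the colon and 0.899 ± 0.778 CPM in the small intestine (log2 fold change 2.96 ± 0.40, and 3.99 without small intestinal library 1, edgeR adjusted p = 8.8e-05). The integrin Itga8 fell to 0.991 ± 0.197 CPM in the colon, against 7.22 ± 1.35 CPM in the small intestine (log2 fold change -2.86 ± 0.39, edgeR adjusted p = 9.3e-05). The integrin subunit Itgb4 (log2 fold change 2.94, edgeR adjusted p = 0.0116) and the collagen Col15a1 (1.19, edgeR adjusted p = 0.046) were less stable. Itgb4 was lost without small intestinal library 1 or colonic library 1 (edgeR adjusted p = 0.0701 and 0.104, with 0.000106 to 0.104 over all alternatives; log2 fold change 1.94 without colonic library 1). Col15a1 was lost without small intestinal libraries 2 or 3 or colonic libraries 1, 2 or 3 (edgeR adjusted p = 0.0861, 0.136, 0.0796, 0.111 and 0.11, with 0.00633 to 0.354 over all alternatives).

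**Figure D3:**
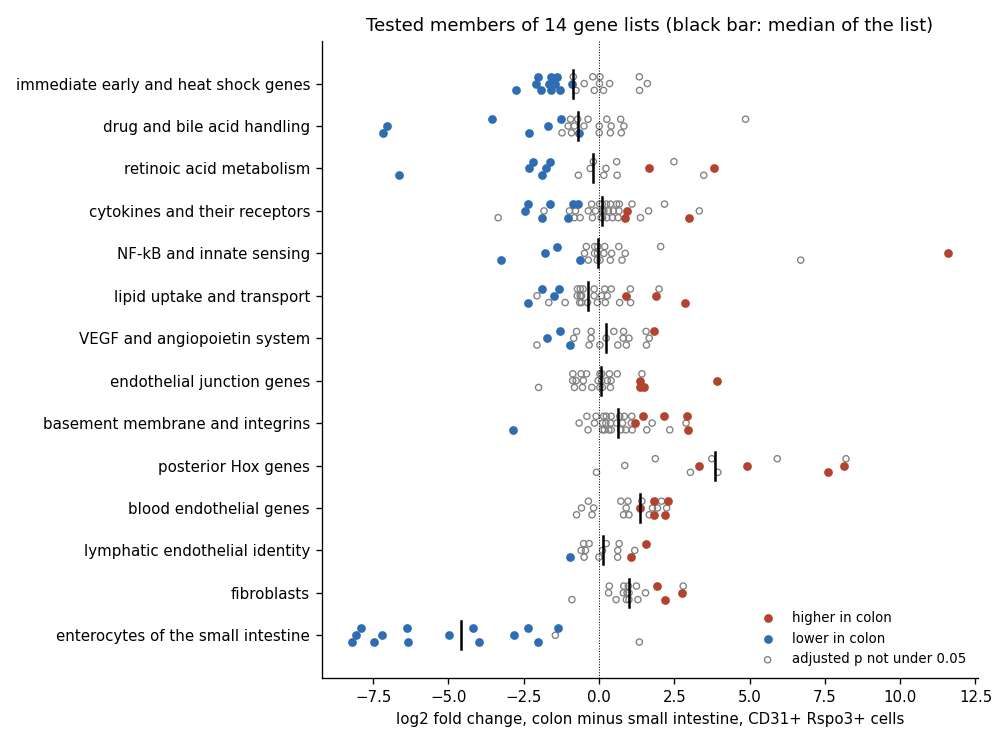
Log2 fold change, colon minus small intestine, of the tested members of 14 gene lists in CD31+ Rspo3+ cells. Each point is 1 gene, filled red where called higher in the colon and blue where called lower, open otherwise, and black bars are list medians. The immediate early list (median -0.86), the enterocyte list and the AHR targets of the drug handling list lie to the left, while the posterior Hox list (median 3.84) lies to the right.

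Hox genes record position along the gut in connective and vascular cells, with posterior members active in the hindgut. Of 12 tested posterior Hox genes 4 rose in the colon and 8 did not pass (33.3% called, background 6.35%, median log2 fold change 3.84). Hoxa10 had 4.87, 4.48 and 4.87 CPM in the colonic libraries, against 0, 0.429 and 0 CPM in the small intestinal libraries (log2 fold change 4.90 ± 0.67, edgeR adjusted p = 0.000477, with 4.14 and 9.46 without small intestinal libraries 1 and 2). Hoxa11 had 1.44, 2.05 and 2.38 CPM in the colon and was at 0 in the small intestine, at least 30.6-fold higher than the floor of 3 counts over the group (edgeR adjusted p = 3.16e-05). Hoxa13 had 1.74, 0.575 and 1.68 CPM in the colon and was at 0 in the small intestine, at least 21.1-fold higher by the same floor (edgeR adjusted p = 0.000832). Colonic CD31- Rspo3- cells held more of each, at 67.9 CPM for Hoxa10, 36.9 CPM for Hoxa11 and 12.9 CPM for Hoxa13. Hoxa9 had 21.8, 18.5 and 13.2 CPM in the colon, against 1.29, 1.17 and 3.08 CPM in the small intestine (log2 fold change 3.31 ± 0.90, edgeR adjusted p = 0.0309). The Hoxa9 call was lost without small intestinal libraries 1 or 2 or colonic libraries 1, 2 or 3 (edgeR adjusted p = 0.12, 0.125, 0.0808, 0.0603 and 0.0507, with 1.6e-05 to 0.125 over all alternatives).

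Hoxd9 and Hoxd10 did not pass the test. Hoxd9 had 40.9, 58.8 and 39.6 CPM in the colon, against 22.9, 31.4 and 22.8 CPM in the small intestine (edgeR adjusted p = 0.424), while small intestinal CD31- Rspo3- cells held 0.149 CPM. The interaction of Hoxd9 against CD31- Rspo3+ cells was -4.34 ± 0.86 (edgeR adjusted p = 0.00669). Hoxd10 had 19.7, 21.9 and 22.05 CPM in the colon, against 1.74, 6.93 and 8.89 CPM in the small intestine (edgeR adjusted p = 0.238, but 0.0145 with limma voom and 0.0166 with limma on log2 TPM, and up to 0.477 over all alternatives). Both genes were singled out after their values were seen. Of 21 tested anterior and middle Hox genes 3 fell (14.3% called, background 6.35%), all under 2 CPM. Hoxc4 and Hoxc5 were at 0 in the colon, and averaged 0.952 ± 0.736 CPM and 0.632 ± 0.47 CPM in the small intestine (edgeR adjusted p = 0.000239 and 0.00247), at least 15.6-fold and 12.4-fold lower in the colon by the floor of 3 counts. Hoxc5 was lost with limma on log2 TPM (adjusted p = 0.105, with 0.000141 to 0.105 over all alternatives). Hoxc6 (log2 fold change -2.15, and -2.87 without colonic library 1, edgeR adjusted p = 0.032) was lost without small intestinal libraries 2 or 3 or colonic libraries 2 or 3 (edgeR adjusted p = 0.114, 0.0744, 0.132 and 0.124, with 0.0128 to 0.135 over all alternatives).

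Outside the Hox clusters, 3 of 29 tested regional transcription factors were called (10.3%, background 6.35%), 2 of them higher in the colon. Pitx1, a hindgut and hindlimb factor, had 7.09, 9.21 and 9.64 CPM in the colon, against 0.229, 0.245 and 0.474 CPM in the small intestine (log2 fold change 4.88 ± 0.71, edgeR adjusted p = 0.000191, lost with limma voom at 0.0592, with 1.55e-11 to 0.0592 over all alternatives). Isl1 averaged 1.22 ± 0.667 CPM in the colon, with reads in 1 small intestinal library only (ratio of counts 28.0, with a 95% counting interval of 7.42 to 236, edgeR adjusted p = 0.00357, lost with limma on log2 TPM at 0.0614, with 0.000499 to 0.0614 over all alternatives), and its log2 fold change of 4.61 was 3.87 and 7.51 without small intestinal libraries 1 and 2.

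Of 31 tested genes of lipid uptake and transport, 4 fell, 3 rose and 24 did not pass (22.6% called, background 6.35%). The median log2 fold change was -0.38. Fabp4, a fatty acid carrier of capillary endothelium, had 109, 119 and 74.8 CPM in the colonic libraries, against 599, 530.1 and 427 CPM in the small intestinal libraries (log2 fold change -2.36 ± 0.41, edgeR adjusted p = 0.00117). Lpl, the lipase of circulating triglycerides, had 33.2, 62.5 and 47.5 CPM in the colon, against 160.2, 175 and 195 CPM in the small intestine (log2 fold change -1.89 ± 0.33, edgeR adjusted p = 0.0012). The groups of both genes did not overlap. Abcg1, a cholesterol exporter, rose to 31.1 ± 5.08 CPM in the colon, against 4.27 ± 0.939 CPM in the small intestine (log2 fold change 2.85 ± 0.67, edgeR adjusted p = 0.0126). Abcg1 was lost without small intestinal library 3 (edgeR adjusted p = 0.0639, with 0.000177 to 0.0639 over all alternatives). Of the other calls, Vldlr (lower), Slc27a3 and Scarb1 (higher) were each lost without at least 3 of the 6 libraries in turn. Vldlr was lost without any 1 (edgeR adjusted p = 0.064, 0.0635 and 0.0769 without small intestinal libraries 1, 2 and 3, and 0.0715, 0.0907 and 0.109 without colonic libraries 1, 2 and 3). Slc27a3 was lost without small intestinal libraries 1 or 2 or colonic library 3 (edgeR adjusted p = 0.0752, 0.0853 and 0.055), and Scarb1 without small intestinal libraries 1 or 2 or colonic library 1 (edgeR adjusted p = 0.191, 0.138 and 0.338). Over their alternatives, adjusted p ran from 0.000157 to 0.109 for Vldlr, from 0.00164 to 0.288 for Slc27a3 and from 0.0166 to 0.338 for Scarb1.

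In the prostaglandin pathway 3 of 18 tested genes fell, 2 rose and 13 did not pass (27.8% called, background 6.35%, median log2 fold change 0.20). The prostaglandin E2 receptor Ptger2 had 11.8, 21.5 and 13.97 CPM in the colon, against 97.4, 104 and 81.4 CPM in the small intestine (log2 fold change -2.58 ± 0.42, edgeR adjusted p = 0.000678). Ptges, a prostaglandin E synthase, had 11.6, 6.97 and 9.10 CPM in the colon, against 36.7, 36.6 and 48.4 CPM in the small intestine (log2 fold change -2.13 ± 0.42, edgeR adjusted p = 0.00325). The third that fell was the exporter Abcc4. The other E2 receptor Ptger4 rose to 6.15 ± 2.85 CPM in the colon, against 1.99 ± 0.215 CPM in the small intestine (log2 fold change 1.62 ± 0.33, edgeR adjusted p = 0.00429). The prostacyclin receptor Ptgir averaged 1.32 ± 0.685 CPM and 0.208 ± 0.139 CPM (edgeR adjusted p = 0.0015, log2 fold change 2.58, and 3.28 without small intestinal library 2). Ptger4 was lost with limma voom (adjusted p = 0.197) and with edgeR on the 6 libraries alone (0.0619), with 0.000108 to 0.197 over all alternatives. Ptgir was lost with limma voom and with limma on log2 TPM (adjusted p = 0.101 and 0.259, with 0.000203 to 0.259 over all alternatives).

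Some called genes were more abundant in CD31+ Rspo3+ cells than in any other fraction of the tissue where they were higher. Of the 670 genes lower in the colon, 323 (48.2%) had their highest small intestinal mean in CD31+ Rspo3+ cells, and of the 539 higher genes 113 (21%) had their highest colonic mean there. Over all tested genes these shares were 25.4% in the small intestine and 26.3% in the colon. The same CD31+ Rspo3+ libraries entered both the call and the choice of the highest fraction. The shares of called genes are therefore partly fixed by the selection and are no test. Among those most abundant here, the growth factor binding protein Igfbp5 had 1456, 1052 and 1454 CPM in the colon, against 175, 234 and 132 CPM in the small intestine (log2 fold change 2.87 ± 0.29, edgeR adjusted p = 6.03e-06). Tgfbi, a secreted adhesion protein, had 309, 480.2 and 460.4 CPM in the colon, against 55.4, 62.4 and 63.4 CPM in the small intestine (log2 fold change 2.79 ± 0.30, edgeR adjusted p = 1.01e-05). Stmn2, a microtubule regulator best known from neurons, had 187, 227 and 205 CPM in the colon, against 15.1, 15.3 and 15.5 CPM in the small intestine (log2 fold change 3.75 ± 0.41, edgeR adjusted p = 1.12e-05). These 3 genes kept their call with each library left out.

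Htr2b, a serotonin receptor, had 111, 74.2 and 61.6 CPM in the colonic libraries, against 1.61, 3.74 and 4.15 CPM in the small intestinal libraries (log2 fold change 4.72 ± 0.99, edgeR adjusted p = 0.00549), and the other fractions stayed below 10 CPM. The matricellular protein Ccn3 had 231, 204 and 205 CPM in the colon, against 40.3, 48.3 and 39.8 CPM in the small intestine (log2 fold change 2.31 ± 0.27, edgeR adjusted p = 1.9e-05). Ptn, the growth factor pleiotrophin, had 63.0, 36.5 and 40.6 CPM in the colon, against 2.02, 4.60 and 3.91 CPM in the small intestine (log2 fold change 3.74 ± 0.32, edgeR adjusted p = 1.61e-06). These are secreted or surface proteins. Genes most abundant in this fraction were named only where the libraries of both tissues did not overlap, so that gap was fixed by the choice. Ddah1, which breaks down an inhibitor of nitric oxide synthases, had 159, 127 and 139 CPM in the colon, against 11.2, 12.0 and 12.2 CPM in the small intestine (log2 fold change 3.59 ± 0.32, edgeR adjusted p = 1.61e-06). Comp, a matrix protein of cartilage, had 94.5, 125 and 115 CPM in the colon, against 2.94, 6.07 and 8.18 CPM in the small intestine (edgeR adjusted p = 0.0122). Comp was lost without small intestinal libraries 1 or 2 (edgeR adjusted p = 0.0636 and 0.0507, with 6.16e-06 to 0.0636 over all alternatives). Has1, a hyaluronan synthase abundant in fibroblasts (3644 CPM in colonic CD31- Rspo3+ cells), had 269.7, 48.2 and 53.9 CPM in the colon, against 1.93, 8.71 and 7.11 CPM in the small intestine (log2 fold change 4.41 ± 0.87, edgeR adjusted p = 0.00356, and 3.14 without colonic library 1).

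On the small intestinal side, Adamts15, a secreted protease, had 2.28, 0.575 and 2.17 CPM in the colon, against 65.3, 41.8 and 53.7 CPM in the small intestine (log2 fold change -4.99 ± 0.51, edgeR adjusted p = 6.03e-06). Efnb3, a guidance ligand, had 3.67, 1.53 and 4.06 CPM in the colon, against 90.2, 87.9 and 46.9 CPM in the small intestine (log2 fold change -4.60 ± 0.62, edgeR adjusted p = 8.54e-05). Pkd2l1, a cation channel subunit, had 0.842, 0.639 and 0.487 CPM in the colon, against 42.8, 45.2 and 60.2 CPM in the small intestine (log2 fold change -6.22 ± 0.60, edgeR adjusted p = 8.32e-05). All 3 were near absent from the colonic libraries, and Pkd2l1 stayed under 2 CPM in every other fraction. Fcna, a ficolin of the lectin complement pathway, had 0.481, 0 and 0.271 CPM in the colon, against 25.6, 24.1 and 35.4 CPM in the small intestine (log2 fold change -6.77 ± 1.37, and -7.56 without colonic library 1, edgeR adjusted p = 0.00431). Prf1, perforin, had 0.481, 0.703 and 1.08 CPM in the colon, against 29.9, 24.8 and 29.99 CPM in the small intestine (log2 fold change -5.21 ± 1.35, edgeR adjusted p = 0.027). The libraries of Prf1 lay far apart, yet its call was lost with any 1 left out (edgeR adjusted p = 0.0608, 0.0539 and 0.0615 without small intestinal libraries 1, 2 and 3, and 0.111, 0.0946 and 0.0849 without colonic libraries 1, 2 and 3, with 4.63e-08 to 0.111 over all alternatives). The 12 markers of T, NK and innate lymphoid cells, some of which carry perforin, summed to 5.95, 0.32 and 4.71 CPM in the colon, against 6.84, 16.7 and 7.35 CPM in the small intestine (median log2 fold change -1.89). The part of such cells in the Prf1 difference was not tested.

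The same tissue comparison in the other fractions used other libraries. It called 844 genes (4.43%) in CD31+ Rspo3- cells, 2.72% of all tested genes higher and 1.71% lower. In CD31- Rspo3+ cells it called 1337 genes (7.02%), 3.62% higher and 3.4% lower. In CD31- Rspo3- cells it called 3353 genes (17.6%), 8.79% higher and 8.81% lower. Of the 539 genes higher in colonic CD31+ Rspo3+ cells, 109 were also higher in CD31+ Rspo3- cells (20.2% of the 539 and 21% of the 518 there) and 138 in CD31- Rspo3+ cells (25.6% of the 539 and 20% of the 689 there). Of the 670 lower genes, 155 were lower in CD31+ Rspo3- cells (23.1% of the 670 and 47.5% of the 326 there) and 164 in CD31- Rspo3+ cells (24.5% of the 670 and 25.3% of the 648 there). In CD31- Rspo3- cells, 248 of the 539 were also higher (46%, and 14.8% of the 1675 there). In the same cells, 213 of the 670 were also lower (31.8%, and 12.7% of the 1678 there). Opposite calls in CD31+ Rspo3-, CD31- Rspo3+ and CD31- Rspo3- cells numbered 2, 14 and 23 of the 539, and 16, 27 and 79 of the 670. In all 4 fractions, 49 genes were higher and 76 lower in the colon, among them Hoxa10, Hoxa11 and Pitx1 (higher) and Cyp1b1 and Ccl25 (lower).

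A direct test found that the tissue difference in CD31+ Rspo3+ cells differed from that in CD31+ Rspo3- cells for 367 genes (1.93%), 122 (0.64%) with a more positive and 245 (1.29%) with a more negative value. With library totals in place of TMM scaling the split was 222 against 151. Without colonic library 3, 158 genes had a more negative value. Of the 367, 247 were also called in the main comparison. Kcnj8 stood out with an interaction of -3.17 ± 0.30 (edgeR adjusted p = 1.28e-05), since in CD31+ Rspo3- cells it averaged 46.1 CPM in the colon and 22.8 CPM in the small intestine. Capg, an actin-capping protein, had 131, 106 and 89.6 CPM in the colon, against 8.54, 11.8 and 10.7 CPM in the small intestine (log2 fold change 3.40 ± 0.20, edgeR adjusted p = 5.9e-09), and averaged 144 CPM in colonic and 97.3 CPM in small intestinal CD31+ Rspo3- cells (interaction 2.83 ± 0.26, edgeR adjusted p = 1.28e-05). Cdh13 was also among the 122 (interaction 4.09 ± 0.57, edgeR adjusted p = 0.000521). Against CD31- Rspo3+ cells, 604 genes (3.17%) differed, 274 (1.44%) with a more positive and 330 (1.73%) with a more negative value. The 274 became 169, 176 and 178 without small intestinal library 1, colonic library 1 and colonic library 3, and the 330 became 212 without colonic library 3. Among them Ptn had an interaction of 4.34 ± 0.43 (edgeR adjusted p = 9.29e-06) and Plcb4, a phospholipase, one of -3.11 ± 0.29 (edgeR adjusted p = 9.29e-06).

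**Figure D4:**
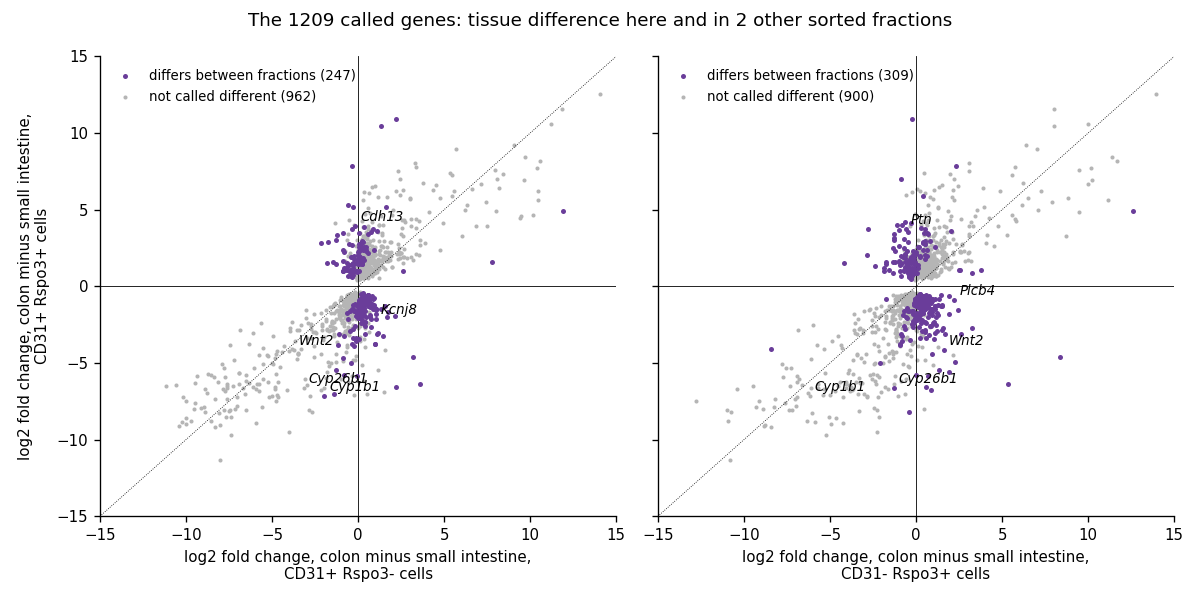
The 1209 called genes, with their log2 fold change, colon minus small intestine, in CD31+ Rspo3+ cells on the vertical axis against that in CD31+ Rspo3- cells (left) and CD31- Rspo3+ cells (right). Purple points are genes whose tissue difference was called different between both fractions (247 on the left and 309 on the right), grey points the others, and the dotted line marks equal differences. Kcnj8 lies below 0 here and above 0 in CD31+ Rspo3- cells, and Wnt2 lies near the dotted line on the left and far from it on the right.

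Most of the largest fold changes were of epithelial genes, although the sort left out Epcam+ cells. By the ranking of called genes with at least 10 CPM, the steepest falls held the enterocyte genes Fabp1 (0.458 ± 0.645 CPM in the colon and 138 ± 75.5 CPM in the small intestine), Apoa1 (0.538 ± 0.68 CPM and 129 ± 55.7 CPM) and Sis (0.136 ± 0.152 CPM and 21.3 ± 10.3 CPM), with edgeR adjusted p = 0.00104, 0.000182 and 0.000101. Their log2 fold changes of -8.22, -7.90 and -7.20 were -10.50, -9.71 and -8.34 without colonic library 1. Fabp1 was lost with limma voom (adjusted p = 0.055), and its lowest adjusted p was 1.51e-06. Of 16 enterocyte markers 14 were called lower (87.5%, background 6.35%). The markers summed to 80.0, 45.6 and 78.5 CPM in the colonic libraries, against 348, 762 and 879 CPM in the small intestinal libraries, and to between 21697 and 42277 CPM in small intestinal CD31- Rspo3- libraries. The count of called enterocyte markers was 8 without colonic library 2, 8 without small intestinal library 2, 9 without colonic library 3 and 9 without small intestinal library 3. Paneth cell markers had 5 of 10 called lower (1, 1 and 2 without colonic libraries 1, 2 and 3, 2 without small intestinal library 2, and 3 without small intestinal library 1 or 3), and colonocyte markers had 5 of 12 called higher (2 without colonic library 1 or small intestinal library 1, and 3 without small intestinal library 2 or 3). Epcam itself overlapped at 29.8, 5.75 and 19.1 CPM in the colon and 10.7, 28.6 and 20.3 CPM in the small intestine (edgeR adjusted p = 0.981).

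Among the largest rises, Car1, a colonocyte carbonic anhydrase, had 46.7, 3.84 and 72.0 CPM in the colon and was at 0 in the small intestine. Its call was lost without small intestinal libraries 1, 2 or 3 or colonic libraries 1 or 3 (edgeR adjusted p = 0.113, 0.107, 0.0931, 0.0783 and 0.0886, against 0.0381 with all, with 1.81e-06 to 0.394 over all alternatives). Colonic CD31- Rspo3- cells held 682 CPM of Car1. Other epithelial genes in the ranking of rises were the amino acid transporter Slc6a14, the tetraspanin Tspan1, the guanylin gene Guca2a and 3 near-identical Sprr2a copies. Slc6a14 averaged 10.9 ± 8.66 CPM in the colon and was at 0 in the small intestine. Tspan1 averaged 25.7 ± 13.5 CPM in the colon and 0.364 ± 0.368 CPM in the small intestine, and Guca2a averaged 42.4 ± 28.2 CPM in the colon and 2.35 ± 1.56 CPM in the small intestine. Sprr2a2 averaged 203 ± 96.5 CPM in the colon and 9.83 ± 6.06 CPM in the small intestine, and colonic CD31- Rspo3- cells held 3155 CPM of it. Each of them was lost without small intestinal library 1, at edgeR adjusted p = 0.114 for Slc6a14, 0.0506 for Tspan1, 0.152 for Guca2a, 0.0679 for Sprr2a2, 0.0577 for Sprr2a3 and 0.166 for Sprr2a1. Without small intestinal library 2 the edgeR adjusted p was 0.104 for Slc6a14, 0.103 for Guca2a, 0.052 for Sprr2a2, 0.0509 for Sprr2a3 and 0.138 for Sprr2a1. Slc6a14, Guca2a and Sprr2a1 were also lost without small intestinal library 3 (edgeR adjusted p = 0.0871, 0.0976 and 0.0838), colonic library 1 (0.0729, 0.0827 and 0.111) or colonic library 3 (0.08, 0.112 and 0.09). Over all alternatives the adjusted p ran from 0.000118 to 0.3 for Slc6a14, from 7.1e-05 to 0.252 for Tspan1, from 0.00224 to 0.347 for Guca2a, from 2.65e-05 to 0.0679 for Sprr2a2, from 0.000104 to 0.236 for Sprr2a3 and from 0.00331 to 0.329 for Sprr2a1. Apobec2, of the cytidine deaminase family, averaged 13.9 ± 2.37 CPM in the colon and 1.03 ± 0.14 CPM in the small intestine, with means under 1 CPM in the other fractions. Apobec2 was lost without small intestinal libraries 1, 2 or 3 (edgeR adjusted p = 0.0669, 0.0645 and 0.0539, with 2.43e-06 to 0.0669 over all alternatives). Further genes in the ranking of falls were Adh6a, Defa24, Apoc2, Cyp3a11, Apoa4, Gstm3 and Guca2b, which averaged between 14.2 CPM (Defa24) and 61.6 CPM (Apoa4) in the small intestine and under 1 CPM in the colon, with small intestinal means of 30.1 CPM (Defa24) to 3161 CPM (Apoa4) in CD31- Rspo3- cells. With limma voom the calls of Defa24 (adjusted p = 0.304) and Guca2b (0.0837) were lost. Over all alternatives the adjusted p ran from 2.94e-05 to 0.304 for Defa24 and from 4.64e-07 to 0.0837 for Guca2b.

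Plasma and B cell markers summed to 4738, 943 and 5333 CPM in the colonic libraries, against 3588, 6396 and 4460 CPM in the small intestinal libraries, and macrophage and dendritic cell markers to 175, 54.5 and 131 CPM, against 74.0, 201 and 74.7 CPM. Colonic library 2 was the lowest of the 6 for the plasma cell and macrophage sums, and small intestinal library 2 was the highest. The part of these cells in the tissue difference was not tested.

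**Figure D5:**
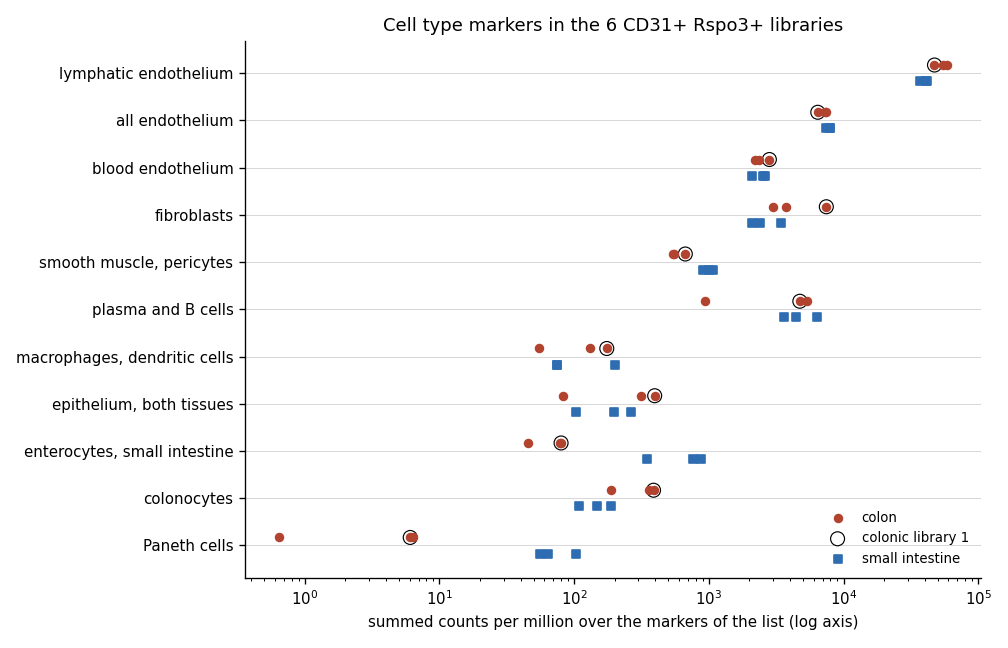
Summed CPM (log axis) of cell type marker lists in each CD31+ Rspo3+ library, with colonic libraries as red circles above small intestinal libraries as blue squares. Black rings mark colonic library 1, which has the highest fibroblast sum (7452 CPM). The lymphatic list leads in all 6 libraries, and the enterocyte and Paneth cell sums of the colonic libraries lie below those of the small intestinal libraries.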

How the data were processed

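Libraries of sorted cells were made from Qiagen RNeasy RNA with the SMART-Seq v4 kit, which does not mark strand, per the labels' protocols, so reads of overlapping antisense genes cannot be told apart. Reads were quantified by the authors with Salmon 1.3.0 and R 4.0.1 on mm10, per the submitters' processing notes. The authors deposited estimated counts per gene, which are whole numbers in the file, and a second table of log2(TPM + 1), where TPM are transcripts per length scaled to a common total; whether replicates were pooled is not stated in the labels. The members, the gene lists and the rules for named genes were chosen with earlier results of these data known.

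Counts of all 24 libraries were fitted with edgeR 4.0.16 (TMM scaling, filterByExpr with a minimum count of 10 and a minimum total of 15, 8 group means, quasi-likelihood F-test). P-values were adjusted over all tested genes, and a gene was called at an adjusted p under 0.05. Differences are log2, colon minus small intestine, and CPM is relative to a library's total over the tested genes times its TMM factor. Each SE of a difference was derived from the test, as the absolute log2 fold change divided by the square root of its F statistic. A gene that did not pass is not thereby shown to be equal in both tissues. Library numbers 1 to 3 follow the order of the columns, which carry no replicate number. The fold of a gene at 0 in a group is a lower bound against a floor of 3 counts over that group, and such floors cover counting error only. Named were the 15 largest rises and 15 largest falls among called genes with at least 10 CPM, a gene name and no overlap between tissues, up to 4 called members of a list in each direction (all where 5 or fewer were called), and 8 genes of each interaction. Other list members and the genes most abundant in CD31+ Rspo3+ cells were named after their values were seen. The genes most abundant there and the 8 of each interaction had to meet the same rules on level, name and overlap. Some genes that the rule names are not reported here. The test was checked on simulated counts. Alternatives were DESeq2, limma voom, other scalings and filters, limma on the deposited log2 TPM, a fit of the 6 compared libraries alone, a 2-fold minimum, and each library left out.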

Additional observations from a re-analysis of the deposited data

Results flagged for a closer look

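The tissue difference in CD31+ Rspo3+ cells was tested against that in the other fractions by an interaction term in edgeR, and 367 genes differed from CD31+ Rspo3- cells and 604 from CD31- Rspo3+ cells. Against CD31+ Rspo3- cells, the 8 named genes with the smallest p had log2 interactions of 2.83 (Capg), -3.17 (Kcnj8), -2.42 (Pramef8), 2.07 (Sfxn3), -2.73 (Nedd9), -2.09 (Fbxo33), -2.15 (Nabp1) and -2.45 (Fos). Against CD31- Rspo3+ cells they were -2.52 (Tle4), -3.11 (Plcb4), 2.70 (Capg), -3.17 (Nedd9), 3.20 (Enpp3), 4.34 (Ptn), 3.30 (Slco2b1) and -2.04 (Coq10b). A positive value means a colonic level that was relatively higher in CD31+ Rspo3+ cells. Groups of 3 libraries are too small for a test of single outlying libraries.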

How the results depend on the processing

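No paired analysis was possible because the count columns carry no replicate number, so libraries of both tissues could not be matched. Over 237 named genes, 2838 of 3305 recomputed values kept their direction and their side of the threshold, 459 kept the direction but lost the call, 8 gained one and 0 reversed. The cause of each shift below was not tested. DESeq2 called 896 genes higher in the colon in place of 539. For the tissue difference against CD31+ Rspo3- cells, DESeq2 gave 331 more positive and 478 more negative genes, library totals without TMM 222 and 151, and limma on log2 TPM 195 more positive genes, in place of 122 and 245. Against CD31- Rspo3+ cells DESeq2 gave 513 and 628 in place of 274 and 330. Blood endothelial genes called higher numbered 9 with DESeq2 and 8 without the filter or in the 6 libraries alone. Posterior Hox genes called higher numbered 7 with DESeq2 or voom, retinoic acid genes 4 with DESeq2 and 1 with voom, and enterocyte markers called lower 8 with voom. With 1 library left out, 321 to 450 genes were called higher and 374 to 528 lower. The interaction counts were then 88 to 117 and 158 to 200 against CD31+ Rspo3- cells, and 169 to 216 and 212 to 273 against CD31- Rspo3+ cells. The list counts were then 2 to 7 (blood endothelial, higher), 3 to 5 (posterior Hox, higher), 1 to 2 (retinoic acid, higher) and 8 to 14 (enterocyte, lower). Depth limits calls on genes of a few counts, in particular in small intestinal library 3, the shallowest at 8462041 counts.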
